A study of Mus musculus with 6 samples.

Results

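Transcripts of 9 marker genes of the fetal-like and regenerative state of the intestinal epithelium were measured in small intestinal adenomas with and without ablation of the Paneth cell (PC) lineage. The genes were *Ly6a*, *Clu*, *Anxa1*, *Il1rn*, *Ctgf*, *Cyr61*, *Ankrd1*, *Sox9* and *Spp1*. They were taken by name, all 9 were found among the 48440 genes of the RNA-seq tables, and the rule used no measured value, although the list was drawn up with earlier results of these data known. The RNA came from adenoma polyps of ApcMin mice on a C57BL/6 background, older than 42 days by the labels, with 3 libraries from ApcMin PCdel mice (QC3, QC8 and QC10) and 3 from ApcMin mice (QC4, QC5 and QC6). Every mouse carried ApcMin, an *Apc* allele that gives multiple intestinal adenomas. By the methods of the study, PCdel mice were *Defa4*-Cre, *Rosa26* iDTA/WT and the controls were littermates that were *Rosa26* iDTA/WT, so the silent toxin cassette was shared and Cre was not. Cre is driven from the *Defa4* locus, an alpha-defensin gene of PCs, and switches on diphtheria toxin A, so that direct killing was limited to cells that had used that locus. The labels do not say whether a library holds 1 polyp or several, and the libraries are treated here as 1 mouse each. Where they are not separate animals, the p-values below measure only the spread between these libraries.

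After injury, surviving cells of the adult gut epithelium can return for a time to a program that resembles the fetal intestine, with less stem cell gene expression and more of the surface protein Ly6a (Sca-1), the chaperone clusterin (Clu) and the annexin Anxa1. The program depends on YAP and TAZ, coactivators that the Hippo kinases hold out of the nucleus and that act on DNA through TEAD factors. *Ctgf*, *Cyr61* and *Ankrd1* are widely used target genes of YAP and TAZ. *Sox9* marks progenitor cells and PCs of the crypt, *Spp1* encodes the secreted integrin and CD44 ligand osteopontin, and *Il1rn* encodes the antagonist of the interleukin-1 receptor.

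In these adenomas, none of the 9 genes separated the genotypes. Of the 8 with enough signal to enter the model, 6 had a higher mean in PCdel adenomas and 2 (*Il1rn* and *Spp1*) a lower mean, where 63.1% of all 14240 genes tested had a positive log2 fold change. None passed an adjusted p of 0.05 in limma, a threshold that 0.014% of all genes passed, and each of the 8 had an adjusted p of 1.0. Only *Clu* had an unadjusted p below 0.05, against 3.38% of all genes, or 2.7% counting genes higher in PCdel adenomas. None had groups that did not overlap, against 7.54% of all genes. The median log2 fold change of the 8 was 0.21, and that of all genes tested was 0.04. All fold changes are on the log2(FPKM + 1) scale, where FPKM counts fragments relative to transcript length in kilobases and to library size, and they understate the change of weakly expressed genes. With 3 libraries against 3, the smallest p that the exact permutation test can give is 0.1, and the smallest among the 9 genes was 0.2, for *Clu*.

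Depth, inferred from the most common ratio of coverage to FPKM, was even, between 5.41 and 5.88 gigabases of aligned sequence per library. No read counts were used, so counting intervals were not derived. Of 8 markers of the targeted lineage, all had a lower log2 mean in PCdel adenomas. Only *Defa22*, *Defa21* and *Lyz1* had groups that did not overlap, against 7.54% of all genes tested. None of the 8 passed the adjusted threshold, with an adjusted limma p of 0.309 for *Defa21* and *Defa22* and 0.979 for *Lyz1*. The paper names these 3 genes as low in PCdel adenomas from the same RNA-seq. Their values are therefore not an independent check of the ablation. *Defa21* was 35.4, 20.2 and 28 FPKM in QC3, QC8 and QC10, and 129, 352 and 241 FPKM in QC4, QC5 and QC6. The lysozyme gene *Lyz1* was at 2060 ± 338 FPKM in ApcMin and at 1060 ± 101 FPKM in PCdel adenomas (mean ± SD, n = 3 each), with a log2 fold change of -0.95, and the log2 fold change of *Defa22* was -2.77. The PC gene *Ang4* varied widely within both groups, at 554 ± 566 FPKM in PCdel and 547 ± 499 FPKM in ApcMin adenomas (SD, n = 3 each), with its highest value, 1173 FPKM, in QC8. Epithelial markers were abundant in all libraries, with the summed FPKM of 10 genes between 6608 and 8509 in PCdel and between 6353 and 7754 in ApcMin adenomas and *Krt8* (log2 fold change 0.09) and *Lgals4* (-0.05) the most abundant of them. Library QC6 of the ApcMin group stood apart. It held the lowest value of the 6 libraries in 46.0% of all genes tested, where each other library did so in 8.90% to 13.1%, and its array quality weight was 0.237, where the others had 0.634 to 3.09. QC6 was also lowest in 6 of the 9 marker genes, so the fold change of each of the 9 is given with and without it. Transcripts of 4 Y-linked genes summed to 41.9 FPKM in QC3 and 37.9 FPKM in QC6 and to at most 1.52 FPKM in the rest, so each group held 1 library with clear Y-linked expression.

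**Figure D1:**
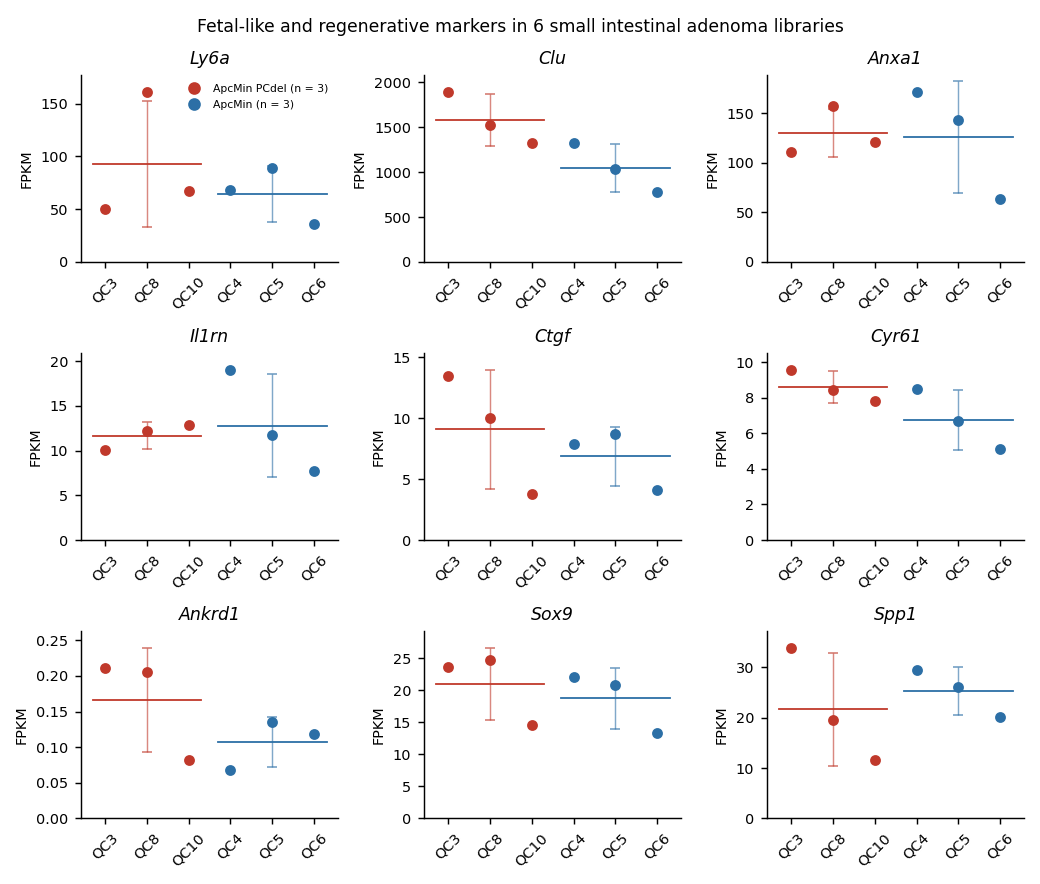
FPKM (vertical axis, from 0) of the 9 genes in each library, with PCdel adenomas in red and ApcMin adenomas in blue. Horizontal lines are group means and bars are the SD over 3 libraries; no panel has all red points above or all below the blue points, and QC6 is the lowest library in 6 panels.

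The first group comprised the secreted and surface proteins that mark fetal-like epithelium. *Clu*, at chr14:65968483-65981548 on the plus strand (GRCm38), encodes clusterin, a secreted chaperone used as the marker of revival stem cells. It was the most abundant of the 9 by a wide margin, at rank 40 of all genes by mean FPKM. Its FPKM was 1897, 1526 and 1319 in QC3, QC8 and QC10, and 1322, 1035 and 784 in QC4, QC5 and QC6. QC3 and QC8 were above every ApcMin library and QC10 lay just under QC4, so the groups overlapped by a narrow margin. The means were 1581 ± 293 and 1047 ± 270 FPKM (SD, n = 3 each). The log2 fold change was 0.61 (SE 0.24, 95% interval 0.04 to 1.18), with an unadjusted limma p of 0.0387, an adjusted p of 1.0 and an exact permutation p of 0.2. Without QC6 the log2 fold change was 0.42 with an unadjusted limma p of 0.0896, and without QC3 it was 0.47 with an unadjusted p of 0.129. The sign was positive under all 16 alternatives tried, from 0.42 to 0.79, and the unadjusted p was below 0.05 in 10 of them. The alternatives are refits of the same libraries and not separate support. The unadjusted limma p was also above 0.05 without QC5 (0.0821), without QC8 (0.0773) and without a minimum FPKM (0.0773). With a Y-linked score as covariate it was 0.0567.

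The level of *Clu* also depended on which deposited column was read. Its FPKM was 3.44 times the level obtained from the deposited read coverage divided by aligned gigabases, where *Sox9*, *Cyr61* and *Ankrd1* had a ratio of 1.0. The gigabases were taken from the most common ratio of coverage to FPKM, so 1.0 is set by construction for genes at that ratio. On that coverage scale, chosen after the data were seen, *Clu* was 551, 437 and 381.2 in PCdel libraries and 380.9, 315 and 228 in ApcMin libraries. There the groups no longer overlapped, by a gap of less than 1 unit between QC10 and QC4, and the log2 fold change was 0.58.

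*Ly6a* (chr15:74994877-74998031, minus strand) encodes Sca-1, a glycolipid-anchored surface protein that is low in the adult crypt and high in fetal and repairing epithelium. Its FPKM was 50.2, 162 and 67.1 in QC3, QC8 and QC10, and 68.6, 88.8 and 35.5 in QC4, QC5 and QC6. QC8 alone was above every ApcMin library, and the other PCdel libraries lay inside the ApcMin range. It was the most variable of the 9 genes, with a 4.55-fold span from the lowest to the highest library. The log2 fold change was 0.44 (SE 0.50, 95% interval -0.75 to 1.63; unadjusted limma p of 0.41, exact permutation p of 0.7). It was -0.05 without QC8 and 0.07 without QC6. Of the 31-base words of *Ly6a* transcripts, 31.9% also occur in transcripts of other genes, so reads could be split between the genes. The largest share, 21.9%, was with its neighbor in the family, *Ly6c1*. *Ly6c1* was lower, between 13.2 and 18.2 FPKM, with a log2 fold change of 0.10.

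*Anxa1* (chr19:20373428-20390944, minus strand) encodes annexin A1, a calcium-dependent membrane-binding protein that acts in the resolution of inflammation and in wound repair. It was at 111, 157 and 121 FPKM in QC3, QC8 and QC10, against 172, 143 and 63.1 FPKM in QC4, QC5 and QC6. The PCdel values lay inside the ApcMin range, whose ends were QC4 and QC6. The means were 130 ± 24.2 and 126 ± 56.4 FPKM (SD, n = 3 each), and the log2 fold change was 0.14 (SE 0.37, 95% interval -0.74 to 1.03; unadjusted limma p of 0.708, exact permutation p of 1.0). Its sign rested on single libraries, since the log2 fold change was -0.29 without QC6 and within 0.01 of 0 without QC8. Genes of the formyl peptide receptors, through which annexin A1 signals, were near or at 0, with *Fpr1* at most 0.52 FPKM, *Fpr2* at most 0.44 FPKM and *Fpr3* listed at 0 in all 6 libraries.

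*Il1rn* (chr2:24336853-24351494, plus strand) was at 10.03, 12.2 and 12.8 FPKM in QC3, QC8 and QC10, against 19.0, 11.7 and 7.69 FPKM in QC4, QC5 and QC6. The PCdel libraries stood close together, with QC4 above them, QC6 below them and QC5 inside their range. The log2 fold change was -0.05 (SE 0.29, 95% interval -0.74 to 0.65; unadjusted limma p of 0.88, exact permutation p of 0.9). It was -0.34 without QC6, 0.26 without QC4 and 0.05 without QC3, and it was 0.01 when TPM replaced FPKM.

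The next group comprised the YAP and TAZ targets. *Ctgf* (chr10:24595442-24598683, plus strand) and *Cyr61* (chr3:145646976-145649981, minus strand) encode matricellular proteins of the CCN family, which bind integrins and are made by stromal as well as epithelial cells. *Ctgf* was at 13.5, 10.03 and 3.82 FPKM in QC3, QC8 and QC10, against 7.86, 8.67 and 4.13 FPKM in QC4, QC5 and QC6. The PCdel group thus held the highest and the lowest value, with QC3 and QC8 above every ApcMin library and QC10 below every one. The log2 fold change was 0.27 (SE 0.44, 95% interval -0.78 to 1.32; unadjusted limma p of 0.561, exact permutation p of 0.5). It was -0.06 without QC3, -0.02 without QC6 and 0.73 without QC10. An exon stretch of 665 of the 2861 exonic bases of *Ctgf* is shared with the antisense gene *Gm15270*, which had a mean of 0.494 FPKM. The sources do not state whether strand was used in counting.

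*Cyr61* was at 9.57, 8.40 and 7.79 FPKM in QC3, QC8 and QC10, against 8.48, 6.70 and 5.11 FPKM in QC4, QC5 and QC6. QC3 was above every ApcMin library, and QC8 and QC10 lay between QC4 and QC5. The span from the lowest to the highest library was small, at 1.87-fold. The means were 8.59 ± 0.902 and 6.76 ± 1.69 FPKM (SD, n = 3 each), and the log2 fold change was 0.32 (SE 0.18, 95% interval -0.10 to 0.74; unadjusted limma p of 0.11, exact permutation p of 0.3). Like *Clu*, it was positive under all 16 alternatives, from 0.16 without QC6 to 0.48 without QC4. The unadjusted p was below 0.05 only without QC4, at 0.0242.

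*Ankrd1* (chr19:36111965-36119844, minus strand), which encodes an ankyrin repeat protein of the nucleus and the sarcomere, was barely detected. Its FPKM was 0.212, 0.205 and 0.0816 in QC3, QC8 and QC10, and 0.0674, 0.136 and 0.119 in QC4, QC5 and QC6. QC3 and QC8 were the highest and the groups overlapped. At this level it did not reach the minimum mean of 1 FPKM for the model. In the fit without that minimum the log2 fold change was 0.07 (SE 0.05, 95% interval -0.06 to 0.21), with an adjusted limma p of 0.991, and the exact permutation p was 0.3. Without QC6 the log2 fold change was 0.08.

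Sequence upstream of the start site was held by the RefSeq promoter table (GRCm38.p6) for 5 of the 9 genes, *Anxa1*, *Il1rn*, *Cyr61* (as *Ccn1*), *Ankrd1* and *Spp1*. The 250 bases before the start are shown for the 4 genes in which a core of the TEAD motif, GGAATG on either strand, or of the AP-1 motif, TGANTCA, was found, because TEAD factors carry YAP and TAZ to the first of these. Matches are in capitals, and CATTCC is the TEAD core on the opposite strand.
Cyr61 (chr3:145649986-145650235, minus strand): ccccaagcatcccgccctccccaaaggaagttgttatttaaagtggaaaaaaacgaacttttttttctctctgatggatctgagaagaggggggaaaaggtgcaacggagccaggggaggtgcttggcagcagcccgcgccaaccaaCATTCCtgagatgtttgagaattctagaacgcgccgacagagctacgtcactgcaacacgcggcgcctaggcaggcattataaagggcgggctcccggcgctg
Ankrd1 (chr19:36119845-36120094, minus strand): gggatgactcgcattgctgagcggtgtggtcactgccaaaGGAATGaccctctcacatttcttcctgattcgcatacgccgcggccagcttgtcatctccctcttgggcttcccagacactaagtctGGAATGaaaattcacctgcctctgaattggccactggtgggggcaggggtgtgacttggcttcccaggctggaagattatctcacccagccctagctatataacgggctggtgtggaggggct
Anxa1 (chr19:20390672-20390921, minus strand): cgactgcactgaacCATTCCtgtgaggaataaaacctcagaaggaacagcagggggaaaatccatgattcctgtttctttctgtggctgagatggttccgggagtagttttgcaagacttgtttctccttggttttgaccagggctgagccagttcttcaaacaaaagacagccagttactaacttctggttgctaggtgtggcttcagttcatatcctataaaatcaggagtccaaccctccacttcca
Il1rn (chr2:24336610-24336859, plus strand): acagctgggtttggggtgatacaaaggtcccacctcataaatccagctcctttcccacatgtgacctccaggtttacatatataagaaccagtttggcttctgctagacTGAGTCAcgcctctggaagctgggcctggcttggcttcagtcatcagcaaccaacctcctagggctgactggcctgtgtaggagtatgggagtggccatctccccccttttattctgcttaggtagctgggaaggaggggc
The TEAD core began 103 bases before the start in *Cyr61*, 236 bases before it in *Anxa1*, and 210 and 123 bases before it in *Ankrd1*. *Il1rn* had an AP-1 core 141 bases before the start shown, and a TEAD core 24 bases before another of its 3 annotated starts. Neither set of letters was found in the windows of *Spp1*. Over all 32851 windows of the table, which run from 250 bases before to 50 bases after a start, 14.7% held a TEAD core, 1.36% held 2 or more, and 7.81% held an AP-1 core. A match describes letters only, and binding was not measured. *Cyr61* and *Ankrd1*, with 1 and 2 TEAD cores in these windows, differed 56.1-fold in mean FPKM. Whether the cores bear on these levels was not tested.

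*Sox9* (chr11:112782224-112787760, plus strand), a transcription factor of crypt progenitors that is needed for PC formation, was at 23.6, 24.8 and 14.5 FPKM in QC3, QC8 and QC10, against 22.0, 20.8 and 13.3 FPKM in QC4, QC5 and QC6. Each group had 1 low library, QC10 and QC6, and QC3 and QC8 stood slightly above the ApcMin libraries. The means were 21.0 ± 5.61 and 18.7 ± 4.72 FPKM (SD, n = 3 each). The log2 fold change was 0.15 (SE 0.26, 95% interval -0.47 to 0.77; unadjusted limma p of 0.579, exact permutation p of 0.5), and -0.06 without QC6. With all libraries, the *Sox9* mean was not lower in the group in which *Lyz1* and *Defa21* were low. That direction turned without QC6, and the interval reaches down to -0.47.

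*Spp1* (chr5:104435118-104441050, plus strand), which encodes osteopontin, was at 33.9, 19.5 and 11.7 FPKM in QC3, QC8 and QC10, against 29.5, 26.2 and 20.1 FPKM in QC4, QC5 and QC6. QC3 was above every ApcMin library, and QC8 and QC10 were below every one. The log2 fold change was -0.32 (SE 0.36, 95% interval -1.17 to 0.54; unadjusted limma p of 0.408, exact permutation p of 0.6). Without QC3 it was -0.69 with an unadjusted limma p of 0.0395, without QC10 it was 0.04, and without QC6 it was -0.47. A total of 309 of the 1648 exonic bases of *Spp1* are shared with *Gm42793*, annotated on the same strand, with a mean of 0.00718 FPKM.

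**Figure D2:**
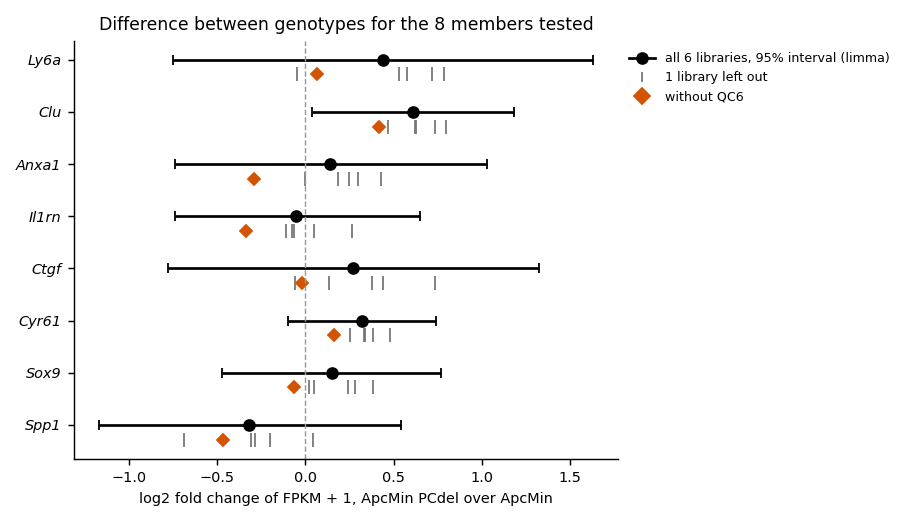
Log2 fold change of FPKM + 1, PCdel over ApcMin, for the 8 genes tested. Black points and bars are the limma estimate and 95% interval over 6 libraries, grey ticks the estimate with 1 library left out, and orange diamonds the estimate without QC6. The intervals of all genes but *Clu* span 0, and without QC6 only *Ly6a*, *Clu* and *Cyr61* stay above 0.

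Without QC6, 3 of the 8 genes had a higher mean in PCdel adenomas, and without QC8 4 did. Over all genes tested, the share with a positive log2 fold change also fell without QC6, to 49.4%, and the median log2 fold change went from 0.04 to 0.00. The 9 genes did not vary as a block between libraries. QC3 was the highest library for *Clu*, *Ctgf*, *Cyr61*, *Ankrd1* and *Spp1*, QC8 for *Ly6a* and *Sox9*, and QC4 for *Anxa1* and *Il1rn*. QC6 was lowest for *Ly6a*, *Clu*, *Anxa1*, *Il1rn*, *Cyr61* and *Sox9*, QC10 for *Ctgf* and *Spp1*, and QC4 for *Ankrd1*. Within PCdel adenomas, QC3 and QC8 were above the 6-library mean on the log2 scale for *Clu*, *Ctgf*, *Cyr61*, *Ankrd1* and *Sox9*, and QC10 was below it for *Ly6a*, *Anxa1*, *Ctgf*, *Ankrd1*, *Sox9* and *Spp1*. *Ly6a* was at opposite ends in QC3 and QC8, at -0.47 and 1.19 on the log2 scale.

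**Figure D3:**
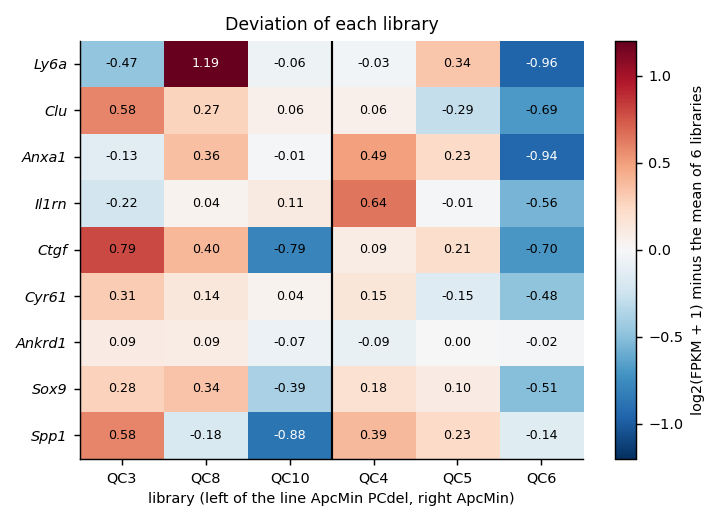
Deviation of log2(FPKM + 1) from the mean of the 6 libraries (color scale and printed values) for the 9 genes, with PCdel libraries left and ApcMin libraries right of the black line. QC6 is below the mean in every row, and QC10 ranges from -0.88 in *Spp1* to 0.11 in *Il1rn*.

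By mean FPKM, which is scaled for length, *Clu* was 10.3-fold above *Anxa1*, and the ranges of these genes over the 6 libraries did not overlap. *Anxa1* and *Ly6a* followed with overlapping ranges. *Ly6a* was higher than *Spp1* in all 6 libraries. *Spp1* and *Sox9* overlapped, as did *Sox9* and *Il1rn*, *Il1rn* and *Ctgf*, and *Ctgf* and *Cyr61*, the last pair differing 1.04-fold in mean FPKM. *Sox9* was nevertheless above *Il1rn* in each of the 6 libraries. *Ankrd1* was far below the others. Part of this order depended on the deposited column, since FPKM was 2.91 times the coverage level for *Il1rn*, 1.62 times for *Anxa1* and 3.44 times for *Clu*. On the coverage scale *Clu* was 4.84-fold above *Anxa1*, *Il1rn* (mean 4.21) was below *Cyr61* (mean 7.67) and *Ctgf* (mean 6.69), and the ranges of *Ly6a* and *Spp1* overlapped. The range of *Sox9* there lay wholly above those of *Cyr61* and *Il1rn*.

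The genes whose profile over the 6 libraries was most like that of each marker gene were found among 9836 genes with a mean of at least 5 FPKM, by the root mean square (RMS) difference of the log2 deviations. For *Sox9* they were *Dag1* (RMS 0.0504) and *Ephb3* (RMS 0.0717), the latter an ephrin receptor of crypt base cells. *Cyr61* was closest to *Tmem173* (0.0585) and *Lyar* (0.0585), and *Clu* to the immunoglobulin segment *Ighv1-80* (0.0833) and *Smoc1* (0.0847). For *Anxa1* they were *Serpinb5* (0.103) and *Lpcat4* (0.134), for *Il1rn* the receptors *Tnfrsf19* (0.104) and *Tnfrsf23* (0.118), and for *Spp1* *Rab3d* (0.0959) and *Pla2g12a* (0.141). *Ctgf* was most like *Col4a2* (0.174) and *Tnc* (0.184), a basement membrane collagen and a matrix glycoprotein, and *Ly6a* was less closely matched, by *Suox* (0.244) and *Dhrs9* (0.261). Over 6 libraries such likeness is a description of profiles only.

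Of 25 further fetal-like genes 24 were tested, 18 with a higher and 6 with a lower mean in PCdel adenomas, and the median log2 fold change was 0.09. It was -0.24 without QC6. None passed the adjusted threshold. The groups did not overlap in 2 of the 24, both higher in PCdel adenomas, a share close to the 7.54% of all genes. *Ereg*, which encodes the EGF receptor ligand epiregulin, was at 17.6, 22.5 and 9.33 FPKM in QC3, QC8 and QC10, against 6.97, 7.60 and 8.66 FPKM in QC4, QC5 and QC6 (log2 fold change 0.92, SE 0.29, and 1.0 without QC6; unadjusted limma p of 0.0171, adjusted p of 1.0). The gap junction gene *Gja1* was between 11.4 and 16.6 FPKM in PCdel and between 9.73 and 11.1 FPKM in ApcMin adenomas (log2 fold change 0.46, and 0.42 without QC6; unadjusted limma p of 0.0218).

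Of 23 further YAP and TAZ targets 21 were tested, 17 with a higher and 4 with a lower mean, and the median log2 fold change was 0.20, or 0.11 without QC6 and 0.10 on the coverage scale. The groups did not overlap in 4 of the 21, all higher in PCdel adenomas, against 7.54% of all genes. Over all genes, too, 79.8% of those with an unadjusted p below 0.05 were higher in PCdel adenomas, and 59.4% were without QC6. The 4 genes were *Axl*, a receptor tyrosine kinase (7.46 to 9.48 FPKM in ApcMin and 9.76 to 11.5 FPKM in PCdel adenomas), *Foxf2*, a transcription factor of gut fibroblasts, *Amotl1* and *Crim1*, with log2 fold changes of 0.35, 0.35, 0.38 and 0.08. Their adjusted limma p was 1.0. The 20 Hippo components, among them *Yap1*, *Wwtr1* (TAZ) and *Tead1* to *Tead4*, all overlapped between the groups, with 17 higher, 3 lower and a median of 0.07. The most abundant of them were *Vgll4*, a TEAD cofactor (log2 fold change 0.10), and the kinase adaptor *Mob1a*, which was at 10.7 and 10.5 FPKM in QC8 and QC4 and between 36.2 and 43.2 FPKM in the other libraries, a split that crossed the genotypes. Of the 6 CCN family genes 3 were tested, *Ctgf*, *Cyr61* and *Wisp1*, all with higher means and overlapping groups.

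Around *Il1rn*, 10 of 17 listed genes of the interleukin-1 family and its receptors were tested, 8 with a higher and 2 with a lower mean (median 0.14). *Il1rl1*, which encodes the receptor of interleukin-33, was at 59.8, 60.0 and 43.8 FPKM in QC3, QC8 and QC10, against 33.7, 26.7 and 26.8 FPKM in QC4, QC5 and QC6. The groups were well apart, the log2 fold change was 0.88 (SE 0.16) and 0.83 without QC6, the unadjusted limma p was 0.00126, and the adjusted p was 0.979. *Il1a*, an agonist that the product of *Il1rn* competes with, was between 1.5 and 2.89 FPKM in PCdel and between 1.02 and 1.24 FPKM in ApcMin adenomas (log2 fold change 0.53, adjusted p of 1.0). For osteopontin, 9 of 11 receptor genes were tested and all had a higher mean in PCdel adenomas (median 0.20, and 0.11 without QC6 or without QC8), with no overlap for the integrin subunits *Itgb5* (0.15) and *Itgb6* (0.26, and 0.07 without QC6). Of 14 other SOX genes 6 were tested, 5 higher and 1 lower, and of 16 other genes of the Ly6 family 8 were tested, 7 higher and 1 lower, with overlapping groups in each. The most abundant of these were *Sox4* (log2 fold change 0.23), *Sox13* (0.29), *Lypd8* (0.19) and *Ly6e* (0.30). Without QC6 their log2 fold changes were -0.04, 0.32, 0.01 and 0.1. Among partners of *Anxa1*, the log2 fold change was -0.01 for *S100a11* and 0.08 for the phospholipase *Pla2g4a*. *S100a11* was at 801, 798 and 775 FPKM in QC3, QC8 and QC10, against 1043, 946 and 516 FPKM in QC4, QC5 and QC6. Without QC6 its log2 fold change was -0.33 (unadjusted limma p of 0.019), and that of *Pla2g4a* was -0.0. No gene of these related lists passed the adjusted threshold in limma. With all libraries, an unadjusted limma p below 0.05 was found for 2 further fetal-like genes, 3 further YAP and TAZ targets and 3 interleukin-1 family genes. All were higher in PCdel adenomas, and the other related lists held 0 such genes. Over all genes tested, 3.38% had such a p, and 79.8% of those were higher in PCdel adenomas. Groups did not overlap in 7.54% of all genes, and 63.1% had a positive log2 fold change.

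**Figure D4:**
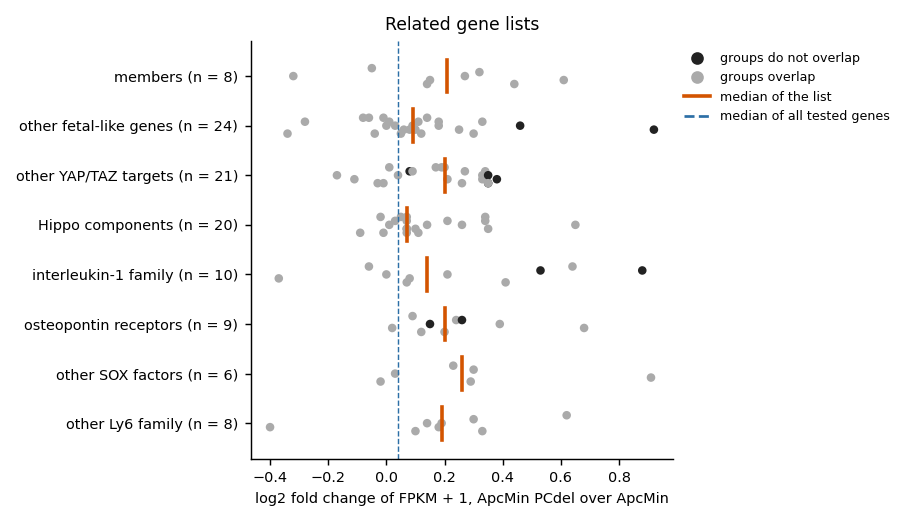
Log2 fold change of FPKM + 1, PCdel over ApcMin, for each tested gene of the 9 markers and of 7 related lists (n in brackets). Black points are genes whose groups do not overlap, orange bars the median of a list and the dashed line the median of all genes tested, 0.04; the black points lie at positive values, and the marker row holds none.

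Several of the 9 genes are also made by cells other than the epithelium, and in bulk tissue fewer cells of a type and less RNA per cell cannot be told apart. Markers of macrophages, a known source of *Spp1*, were higher in PCdel adenomas in all 7 genes tested of 8, with a summed FPKM of 129 to 149 against 101 to 120 and no overlap. *C1qc* (0.41), *C1qb* (0.35) and *Adgre1* (0.38) had groups that did not overlap, and *Csf1r*, *Cd68*, *C1qa* and *Mrc1* had groups that did. The mean of *Spp1* was lower in PCdel adenomas, but its log2 fold change turned to 0.04 without QC10. Markers of fibroblasts, a source of *Ctgf* and *Cyr61*, were higher in all 8 genes, with sums of 257 to 409 FPKM in PCdel and 205 to 296 FPKM in ApcMin adenomas. *Pdgfra* (0.62), *Dcn* (0.60) and *Col6a1* (0.47) did not overlap, and the collagen genes *Col1a1*, *Col1a2* and *Col3a1*, *Lum* and *Pdpn* did. Smooth muscle markers were higher in all 8 genes, with overlapping sums, and the most abundant were *Tagln* (0.30) and *Acta2* (0.30). Neutrophil markers, a source of *Anxa1* and *Il1rn*, were low, with sums of 17.1 to 36.0 FPKM in PCdel and 12.4 to 27.8 FPKM in ApcMin adenomas, and *Retnlg* alone had groups that did not overlap (0.68). With all libraries, markers of endothelium (*Pecam1* 0.06, *Egfl7* 0.06), T cells (*Trac* 0.11, *Cd3g* 0.11), and B and plasma cells (*Jchain* -0.02, *Mzb1* 0.07) overlapped in every gene tested. Without QC6, *Trac* was at 0.28 and *Cd3g* at 0.52 (unadjusted limma p of 0.0377). The median of the T cell list then went from 0.12 to 0.43. *Pecam1*, *Egfl7*, *Jchain* and *Mzb1* were at -0.16, -0.13, 0.24 and 0.25 without QC6. No marker of these lists was at 0 in all libraries, and none passed the adjusted threshold in limma. With all libraries, an unadjusted limma p below 0.05 was found for 4 of 8 fibroblast, 3 of 7 macrophage and 1 of 6 neutrophil markers. All were higher in PCdel adenomas. Over all genes tested, 3.38% had such a p, 2.7% being higher in PCdel adenomas. Groups did not overlap in 7.54% of all genes, and 63.1% had a positive log2 fold change. The part of these cells in the values of the 9 genes was not tested.

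**Figure D5:**
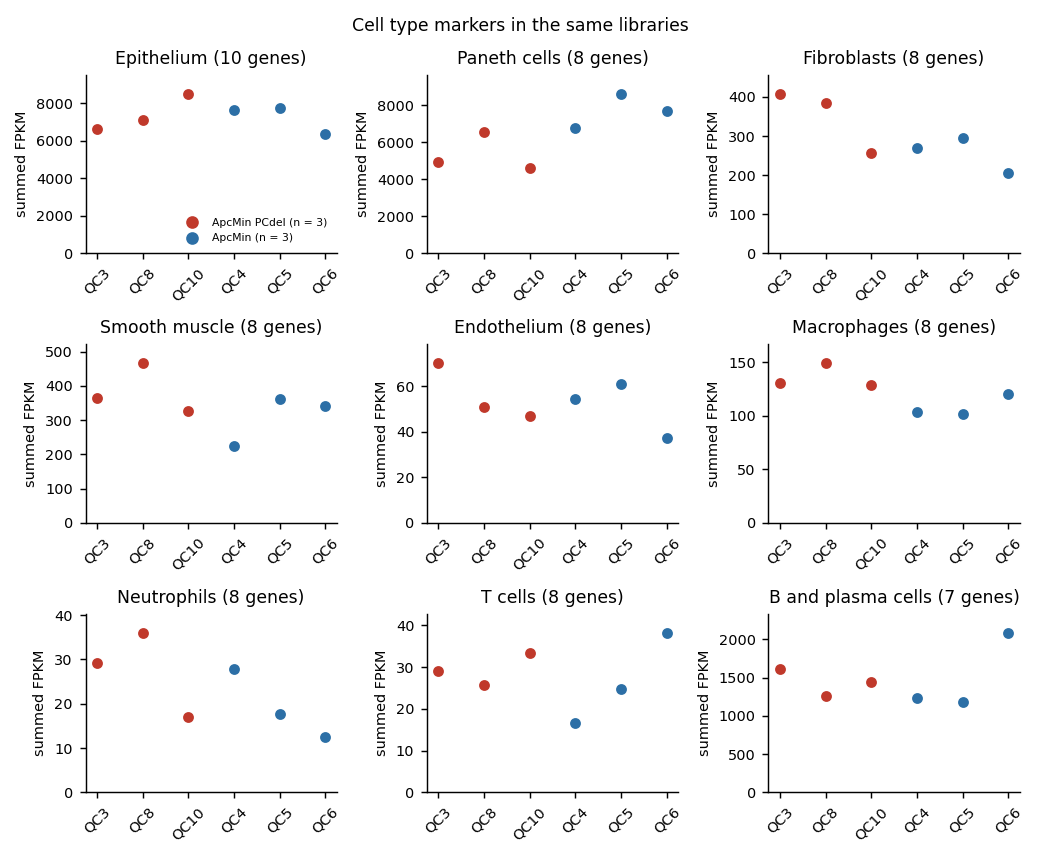
Summed FPKM (vertical axis, from 0) of the marker genes of 9 cell types in each library, PCdel adenomas in red and ApcMin adenomas in blue. The sums of PC and macrophage markers do not overlap between the genotypes, lower and higher respectively in PCdel adenomas, and the other sums overlap.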

How the data were processed

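RNA of adenoma samples was made into libraries with the TruSeq RNA kit. The methods of the study name CLC Genomics Workbench 7 for alignment and a normalization in MatLab. The program and annotation behind the deposited values are not given in the sources used here, and gene positions match GRCm38. For every gene of a library, the authors deposited FPKM, TPM and the mean read coverage, the last of these not scaled. FPKM of separate entries of a gene were summed. Genes with a mean of at least 1 FPKM over the 6 libraries (14240 of 48440) were fitted as log2(FPKM + 1) with limma 3.58.1 in R 4.3.3 (lmFit, eBayes with trend), Benjamini-Hochberg adjusted over all of them. The FPKM of single genes were put to a two-sided exact permutation test over the 6 libraries. The fit was tested on simulated data with independent noise for each gene and changes larger than those estimated for the marker genes. That test did not cover smaller changes or effects shared across a library, such as that of QC6. The depth of 5.41 to 5.88 gigabases per library was taken as the most common ratio of coverage to FPKM. Between 31.5% and 31.9% of entries above 1 FPKM lay at that ratio, so the depth is not independent of FPKM. TPM gave an alternative.

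The marker genes and the lists were chosen with earlier results of these data known. All 9 markers were named. From each other list up to 4 genes with groups that did not overlap were named, smallest limma p first, or else the 2 with the highest mean FPKM. *Wisp1*, *Yap1*, *Wwtr1*, the *Tead* genes, the *Fpr* genes, *Ang4* and the fibroblast and macrophage markers with overlapping groups were named in addition, after their values were seen. Promoters were matched by symbol and shared sequence was searched in GENCODE transcripts as words of 31 bases on either strand. The alternatives were a pseudocount of 0.1, no minimum, a minimum of 5 FPKM, quantile normalization, TPM, median centring, no trend, array quality weights, a Y-linked score as covariate, each library left out, and, added after the data were seen, coverage divided by aligned gigabases. Read counts were not used, and so no count model was fitted.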

Additional observations from a re-analysis of the deposited data

How the results depend on the processing

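No paired analysis was possible because the library numbers do not link the genotypes. Of the 8 genes tested, *Clu* and *Cyr61* kept their sign under all 16 alternatives, and no gene passed the adjusted threshold under any. *Anxa1* turned to -0.17 with array quality weights and ranged from -0.29 to 0.43 with a library left out, and *Il1rn* turned to 0.011 with TPM and ranged from -0.34 to 0.26. With a library left out the range was -0.061 to 0.73 for *Ctgf*, -0.049 to 0.78 for *Ly6a*, -0.064 to 0.38 for *Sox9* and -0.69 to 0.043 for *Spp1*, and 3 to 7 of the 8 genes were higher in PCdel adenomas. Over all genes, 2 passed the adjusted threshold, 1 without the minimum, 1 with median centring, and 1 to 5 with a library left out. The count was 3 under array quality weights. An unadjusted p below 0.05 was found for 481 genes, 976 without the minimum, 260 with a minimum of 5 FPKM, 1270 with array quality weights and 358 to 820 with a library left out, the last value without QC6. Groups did not overlap in 1073 genes, 1942 without the minimum, 622 with a minimum of 5 FPKM and 1808 to 3370 with a library left out, where fewer libraries separate more easily. Of the genes with an unadjusted p below 0.05, 79.8% were higher in PCdel adenomas, and 88.0% with TPM, 58.9% after quantile normalization, 61.4% after centring, 63.5% under array quality weights and 59.4% without QC6. The cause of these shifts was not tested. With 3 libraries a group, the 95% intervals of 7 of the 8 genes include 0.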

Other observations

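Among the related genes, 3 had library profiles that stood out, and they were picked after their values were seen. *Tead1*, which encodes a TEAD factor, was at 7.39 and 6.90 FPKM in QC3 and QC8 and between 1.56 and 2.95 FPKM in QC10 and the ApcMin libraries, so the PCdel group held both the highest values and the lowest (log2 fold change 0.65, unadjusted limma p of 0.20). *Sox17*, a transcription factor of endothelium and endoderm, was at 21.6 and 22.1 FPKM in QC3 and QC10, at 9.21 FPKM in QC8 and between 5.63 and 12.6 FPKM in ApcMin adenomas (log2 fold change 0.91). *Ly6d*, a further surface protein of the Ly6 family, was at 280 FPKM in QC4 and 273 FPKM in QC10 and at 74.3 FPKM in QC6, with a log2 fold change of 0.14.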
